A study of Mus musculus with 6 samples.

Results

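The Msx and Dlx genes are homeobox genes, and their 8 members studied here are Msx1, Msx2 and Dlx1 to Dlx6, found by name among the 24346 genes of the deposited tables. All 8 were listed in every library. The tissue was the calvaria, the vault of the skull, dissected from newborn mice with the interparietal and occipital bone kept and ear cartilage left out. Of the 6 libraries, 3 were labelled mutant (Prx1-Cre with Pth1r fl/fl) and 3 were labelled as floxed controls (Pth1r fl/fl, with no Cre named), so both groups carry the floxed Pth1r alleles and the groups differ by the transgene. Pth1r encodes the receptor for parathyroid hormone and its related protein, and Prx1-Cre uses a regulatory element of the Prrx1 gene that is active in mesenchyme of the limb and part of the head, so cells outside that mesenchyme keep an intact receptor. Values are FPKM, fragments counted for a gene, scaled by transcript length and library size.

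Msx and Dlx proteins bind nearly the same short AT-rich DNA sites through a homeodomain. Msx proteins act mainly as repressors that hold cells in a proliferating, undifferentiated state, and are induced by bone morphogenetic proteins (BMPs). Dlx proteins act mainly as activators, and Dlx3, Dlx5 and Dlx6 are known to promote osteoblast maturation. Both families are needed for skull growth: loss of Msx2 leaves gaps in the vault in mice and in people, while a gain-of-function change in human MSX2 closes sutures too early.

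The shared DNA-binding part is seen in the coding sequence. Below are the 51 bases that encode residues 42 to 58 of the homeodomain, which hold the helix that lies in the major groove of DNA, read 5′ to 3′ on the coding strand from the GENCODE M21 transcripts (GRCm38). They are shown because they are what sets the 2 families beside each other, and capitals mark the 29 bases that are identical in all 8 genes, of which 7 are shown.
Msx2: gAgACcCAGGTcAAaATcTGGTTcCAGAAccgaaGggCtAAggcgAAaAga
Dlx1: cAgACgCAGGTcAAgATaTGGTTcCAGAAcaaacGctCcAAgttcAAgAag
Dlx2: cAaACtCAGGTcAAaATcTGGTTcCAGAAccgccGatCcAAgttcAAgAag
Dlx3: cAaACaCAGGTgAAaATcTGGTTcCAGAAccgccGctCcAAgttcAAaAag
Dlx4: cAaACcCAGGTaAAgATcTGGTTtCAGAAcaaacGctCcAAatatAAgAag
Dlx5: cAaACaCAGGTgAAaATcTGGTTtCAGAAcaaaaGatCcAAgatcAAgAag
Dlx6: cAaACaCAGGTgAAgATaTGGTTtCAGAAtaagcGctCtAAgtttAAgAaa
In both Msx genes the window lies in exon 2 of 2, and that of Msx2 is at chr13:53468376-53468426 on the minus strand. In all 6 Dlx genes it runs from exon 2 into exon 3 of 3, so its genome span includes the intron between them. Those spans are chr2:71531148-71532305, chr11:95121890-95123450 and chr6:6865263-6867082 on the plus strand for Dlx1, Dlx3 and Dlx6. They are chr2:71544883-71545392, chr11:95141428-95141797 and chr6:6878447-6879534 on the minus strand for Dlx2, Dlx4 and Dlx5.

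Over the whole homeodomain of 60 residues, Msx1 and Msx2 share 58 residues. The 15 pairs of Dlx genes share 47 to 58, and the 12 pairs of an Msx with a Dlx gene share 31 to 36. At 21 positions the 2 Msx proteins have the same residue and no Dlx protein has it. At the level of bases, the homeobox of Msx1 and Msx2 is 82.2% identical, that of Dlx pairs 66.1% to 81.7%, and that of pairs across the families 54.4% to 65.0%. The longest identical run in the transcripts of any 2 members was 44 bases, and within either family it was 23 bases or less.

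The members sit at 5 places in the genome. Msx1 spans chr5:37820485-37824583 and Msx2 spans chr13:53466884-53473074, both on the minus strand of GRCm38. The Dlx genes lie in 3 pairs whose 3′ ends face each other. Dlx1 and Dlx2 are on chromosome 2 with 9426 bases between them, Dlx3 and Dlx4 on chromosome 11 with 15150 bases between them, and Dlx6 and Dlx5 on chromosome 6 with 9236 bases between them. Antisense transcripts overlap several members. Msx1os lies within the Msx1 span in RefSeq and covers 53.4% of it, while in GENCODE Dlx1as shares 6.21% of the exonic bases of Dlx1 and Dlx6os2 shares 4.38% of those of Dlx6. The library kit was stranded, but the sources used here do not say whether counting used strand, and reads of Msx1 and Msx1os may not have been told apart.

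Libraries were checked before the members were compared. Relative depth, read from the steps between the lowest values with control 1 set to 1, was 0.703 to 0.972 in mutant-labelled libraries and 0.845 to 1 in controls. Pth1r, the targeted gene, had 127, 125 and 142 FPKM in mutant-labelled libraries, against 89.2, 93.3 and 102 FPKM in controls. It was thus not lower where the label says it was deleted, with a log2 difference of 0.47 ± 0.078 (SE; adjusted p = 0.065 by limma with Benjamini-Hochberg) and p = 0.1 in an exact two-sided permutation test, the smallest p that 3 against 3 allows. FPKM is summed over all exons and does not show a deleted exon by itself, so directions below follow the library labels and nothing else. Bone markers were abundant in all libraries, with the 14 genes of osteoblast maturation summing to 26890 to 36703 FPKM in mutant-labelled libraries and 26423 to 29310 FPKM in controls. Cartilage markers summed to 560 to 710 FPKM in mutant-labelled libraries and 1137 to 2225 FPKM in controls, and osteoclast markers to 1671 to 1824 FPKM under the mutant label and 629 to 705 FPKM in controls. Of 13180 genes tested in limma on log2(FPKM + 1), 69 (0.524%) were called higher and 11 (0.0835%) lower in mutant-labelled libraries at an adjusted p of 0.05.

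Dlx5, at a mean of 37.7 FPKM over the 6 libraries, was the most abundant member. Next came Dlx3 at 12.3, Msx2 at 11.3, Dlx6 at 9.12 and Msx1 at 8.67 FPKM. Far below these lay Dlx1 at 0.479, Dlx2 at 0.32 and Dlx4 at 0.121 FPKM, while Msx3, the remaining Msx gene, expressed in the neural tube and no member here, did not pass 0.0821 FPKM in any library. In mutant-labelled libraries the order of the means was Dlx5, Dlx3, Msx2, Dlx6 and Msx1, and in controls it was Dlx5, Msx2, Dlx3, Msx1 and Dlx6. Dlx5 stood above every other member in every library. The ranges of Dlx3 and Msx2 overlapped in each group, as did those of Msx1 and Dlx6. Within a library, Dlx3 was above Msx2 in all 3 mutant-labelled libraries and in control 3, and below it in controls 1 and 2. Msx1 was above Dlx6 in library 1 labelled mutant and in control 2, and below it in the other libraries. Within each Dlx pair 1 gene dominated where the pair was expressed: Dlx5 had 3.97 to 5.64 times the FPKM of Dlx6 in mutant-labelled libraries and 3.42 to 4.40 times in controls, and Dlx3 had 78.9 to 294 times the FPKM of Dlx4 in mutant-labelled libraries and 78.5 to 129 times in controls.

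**Figure D1:**
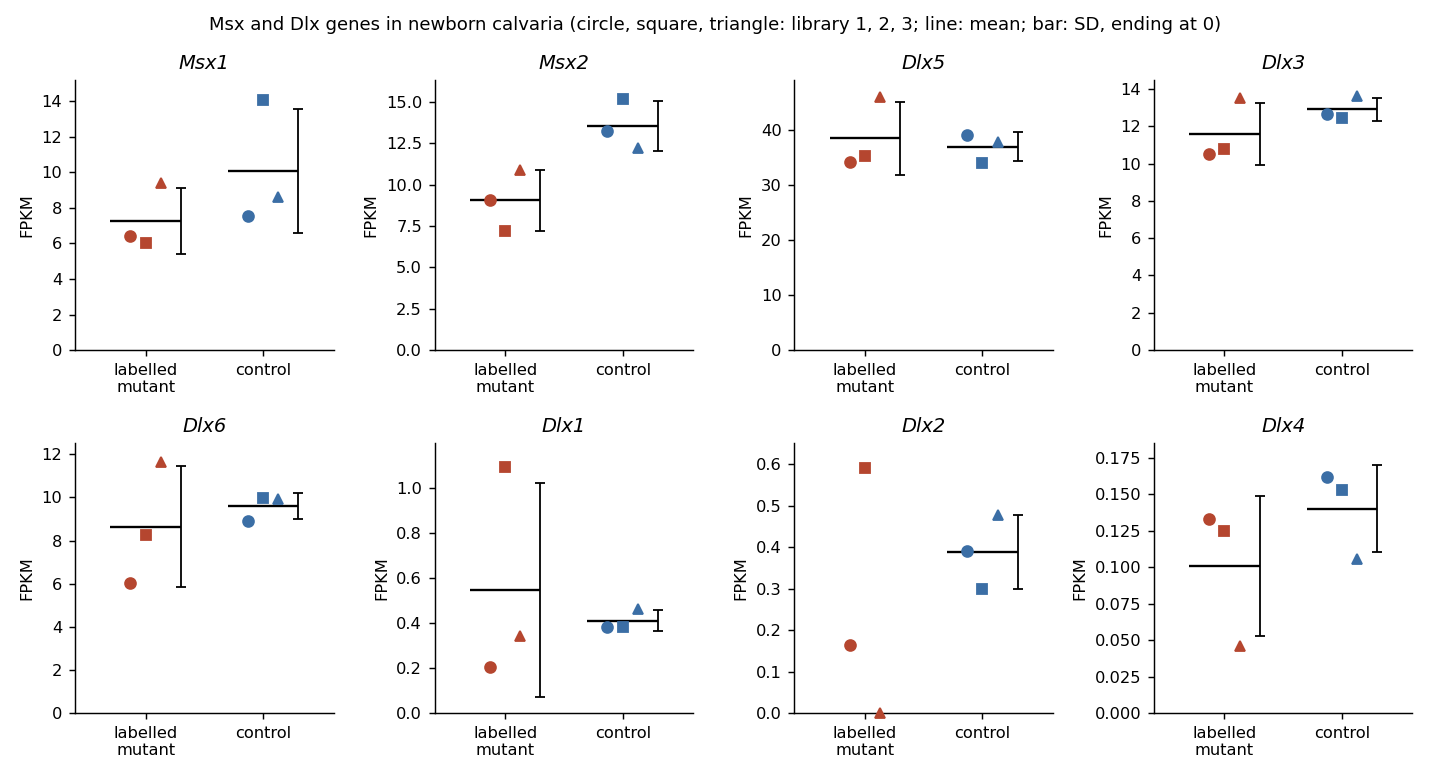
FPKM of the 8 genes in each library, mutant-labelled libraries left of controls, 1 panel and 1 axis per gene; horizontal lines are means and bars SD over 3 libraries, left out where a library is listed at 0. Msx2 is the 1 gene whose groups do not overlap, at 7.19 to 10.9 FPKM in mutant-labelled libraries and 12.2 to 15.2 FPKM in controls.

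None of the members passed the test between the groups. Of the 8, 5 had a mean of at least 1 FPKM and entered the fit (Msx1, Msx2, Dlx3, Dlx5 and Dlx6), and 0 were called higher and 0 lower, where 0.524% and 0.0835% of all tested genes were. At an unadjusted p under 0.05 there was 1 of the 5, Msx2, as were 1388 (10.5%) of all tested genes. It was also the 1 tested member whose groups did not overlap, in the lower direction, as was so for 6.79% of all tested genes (9.34% did not overlap in the higher direction). Over all 8 members, the mean was lower for 6 and higher for 2 (Dlx1 and Dlx5) in mutant-labelled libraries.

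Msx2, the member most tied to suture closure, had 9.07, 7.19 and 10.9 FPKM in mutant-labelled libraries, against 13.2, 15.2 and 12.2 FPKM in controls. Every library labelled mutant lay below every control. The mean was 9.04 ± 1.84 FPKM under the mutant label and 13.5 ± 1.49 FPKM in controls (SD, n = 3 each), a ratio of 0.668. On the log2(FPKM + 1) scale the difference was -0.55 ± 0.14 (SE, 95% interval -0.88 to -0.21), with an adjusted p of 0.217 (limma, Benjamini-Hochberg) and rank 402 by p among 13180 genes. Its sign held when any 1 library was left out, with differences of -0.67 to -0.41, and the adjusted p ranged from 0.104 to 0.461 over all settings tried. In bulk tissue, fewer cells that express a gene and less RNA per cell cannot be told apart.

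Msx2 was also set against genes of the osteoblast lineage within the same library. Its FPKM was 9.09%, 7.15% and 8.38% of that of Sp7, a transcription factor that osteoblasts require, in mutant-labelled libraries, against 13.5%, 15.7% and 10.96% in controls. Against Runx2, the factor that commits cells to the osteoblast lineage, it was 26.1%, 22.8% and 25.9% in mutant-labelled libraries and 44.6%, 52.6% and 40.0% in controls. Neither ratio overlapped between the groups, but both reuse the Msx2 values above and are not separate results. Runx2 itself had 34.7, 31.5 and 41.9 FPKM in mutant-labelled libraries and 29.7, 28.8 and 30.6 FPKM in controls, also without overlap. With Msx2 lower and Runx2 higher in every mutant-labelled library, the ratio of Msx2 to Runx2 could not overlap.

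Msx1, the paralog of Msx2 and known for its role in palate and tooth formation, had 6.40, 6.02 and 9.41 FPKM in mutant-labelled libraries, against 7.55, 14.1 and 8.59 FPKM in controls. The groups overlapped, and control 2 stood above the other libraries. The mean was 7.28 ± 1.86 FPKM under the mutant label and 10.1 ± 3.49 FPKM in controls (SD, n = 3 each). The log2 difference was -0.40 ± 0.24 (SE, 95% interval -0.96 to 0.17; adjusted p = 0.648 by limma with Benjamini-Hochberg). Without control 2 it was -0.15 ± 0.18 (SE). Control 2 also had the highest sum of the 5 inner ear markers, at 1.40 to 3.59 FPKM in mutant-labelled libraries and 4.76, 88.6 and 5.18 FPKM in controls. Oc90 and Otor, genes of the inner ear, made up most of that sum in control 2 at 56.6 and 22.5 FPKM, with Coch at 9.28 FPKM. Otos was instead highest in library 1 labelled mutant at 0.763 FPKM, against 0.251 FPKM in control 2, and Tectb was listed at 0 in every library but control 3. The part of inner ear tissue in the Msx1 value was not tested.

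Msx1os, the transcript antisense to Msx1, had 10.7, 11.6 and 13.1 FPKM in mutant-labelled libraries, against 14.1, 16.3 and 14.0 FPKM in controls. The groups did not overlap, and the fitted log2 change, -0.30 ± 0.094 (SE), missed the threshold (adjusted p = 0.28 by limma with Benjamini-Hochberg). It was at 1.39 to 1.92 times the FPKM of Msx1 in mutant-labelled libraries and 1.16 to 1.86 times in controls. Like Msx1 it was highest in control 2.

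The promoters of Msx1 and Msx2 are shown because these were the 2 members with the lowest ratios among those tested. Each runs from 250 bases before to 50 bases after the gene's start in RefSeq on GRCm38.p6, in the direction of transcription. Msx1 is at chr5:37824536-37824835 and Msx2 at chr13:53472731-53473030, both on the minus strand. The annotations differ in the start of Msx2: its RefSeq window lies wholly inside the longer GENCODE span given above. Of the 8 members, 4 had a promoter in that table (Msx1, Msx2, Dlx1 and Dlx2). Capitals mark matches, on either strand, to 5 motifs. These are the homeodomain motifs TAATTG and also TAATTA, the TATA box TATAAA, the Sp1 motif GGGCGG and the NF-Y motif CCAAT.
Msx1: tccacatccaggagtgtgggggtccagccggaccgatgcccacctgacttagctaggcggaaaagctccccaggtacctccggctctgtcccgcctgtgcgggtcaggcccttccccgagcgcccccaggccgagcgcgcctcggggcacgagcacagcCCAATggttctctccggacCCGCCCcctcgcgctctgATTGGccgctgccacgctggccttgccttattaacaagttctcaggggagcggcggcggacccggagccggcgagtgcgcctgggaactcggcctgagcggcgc
Msx2: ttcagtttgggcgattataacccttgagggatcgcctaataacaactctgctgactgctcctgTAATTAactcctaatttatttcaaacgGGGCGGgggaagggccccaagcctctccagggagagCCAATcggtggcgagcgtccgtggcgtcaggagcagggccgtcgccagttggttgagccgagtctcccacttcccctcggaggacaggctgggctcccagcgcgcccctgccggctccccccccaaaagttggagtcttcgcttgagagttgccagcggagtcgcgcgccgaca
Both hold GGGCGG once, as do 35.7% of all 32851 promoters of that length. CCAAT occurs 2 times in Msx1 and 1 time in Msx2, and in 37.4% of all. TAATTA occurs once, in Msx2, and in 5.29% of all. TAATTG, present in 8% of all, and TATAAA, present in 13.6% of all, were in neither window. None of the marked matches overlap one another.

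Dlx5, an activator of osteoblast genes including Runx2 and Ibsp, had 34.1, 35.3 and 46.1 FPKM in mutant-labelled libraries, against 39.2, 34.0 and 37.8 FPKM in controls. The groups overlapped, with library 3 labelled mutant highest. The mean was 38.5 ± 6.61 FPKM under the mutant label and 37.0 ± 2.66 FPKM in controls (SD, n = 3 each), and the log2 difference was 0.045 ± 0.12 (SE, 95% interval -0.24 to 0.33; adjusted p = 0.947 by limma with Benjamini-Hochberg). That sign turned without library 3 labelled mutant (-0.088), without control 2 (-0.012) and with array weights (-0.050).

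Dlx6, the neighbour of Dlx5 and largely redundant with it in the skeleton, had 6.04, 8.25 and 11.6 FPKM in mutant-labelled libraries, against 8.90, 9.96 and 9.93 FPKM in controls. Libraries labelled mutant lay on both sides of all controls. The log2 difference was -0.18 ± 0.20 (SE, 95% interval -0.64 to 0.28; adjusted p = 0.843 by limma with Benjamini-Hochberg), and without library 1 labelled mutant it was 0.029. Dlx6os1, the long noncoding RNA also called Evf2 and transcribed antisense to Dlx6, had 0.873, 1.26 and 1.17 FPKM in mutant-labelled libraries and 0.990, 1.16 and 1.49 FPKM in controls, and its groups overlapped too.

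Dlx3, known for bone density, teeth and skin, had 10.5, 10.8 and 13.5 FPKM in mutant-labelled libraries, against 12.7, 12.4 and 13.6 FPKM in controls. Libraries 1 and 2 labelled mutant lay below all controls and library 3 within their range. The mean was 11.6 ± 1.66 FPKM under the mutant label and 12.9 ± 0.632 FPKM in controls (SD, n = 3 each), and the log2 difference was -0.15 ± 0.10 (SE, 95% interval -0.39 to 0.087; adjusted p = 0.691 by limma with Benjamini-Hochberg). Skin also expresses Dlx3. The 9 epidermal markers summed to 3.50 to 6.51 FPKM in mutant-labelled libraries and 6.64 to 8.56 FPKM in controls, and Krt5, a keratin of the basal epidermis, did not pass 0.135 FPKM in any library. Others of the list reached higher values, up to 2.47 FPKM for Lor, 1.95 FPKM for Krt15, 1.90 FPKM for Krt10 and 1.84 FPKM for Trp63. The epidermal sums did not overlap between the groups and were lower under the mutant label. The part of skin in the Dlx3 values was not tested.

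Library 3 labelled mutant was the highest of its group in Msx1, Msx2, Dlx3, Dlx5 and Dlx6 alike. The same library was the highest of all 6 in Runx2 at 41.9 FPKM, in Sp7 at 130 FPKM and in Col1a1, the main collagen of bone, at 13131 FPKM. Measured against Sp7, Dlx5 overlapped between the groups, at 34.2%, 35.1% and 35.5% in mutant-labelled libraries and 40.0%, 35.3% and 33.9% in controls. Against Runx2 it did not overlap, at 98.3%, 112% and 110.0% in mutant-labelled libraries and 132%, 118% and 124% in controls. That ratio reuses the Runx2 values, which by themselves did not overlap, while those of Dlx5 did. It is thus not a separate result on Dlx5. The part of osteoblast content in these values was not tested.

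**Figure D2:**
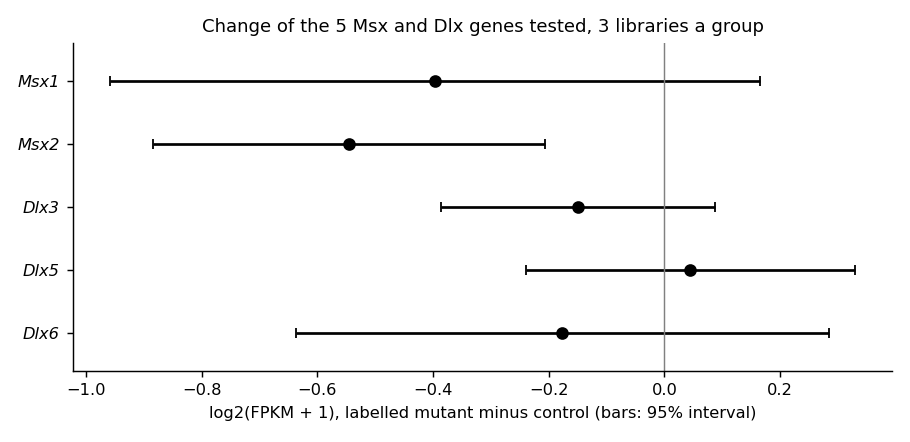
Difference of mean log2(FPKM + 1), labelled mutant minus control, for the 5 genes tested, with the 95% interval from limma over 3 libraries a group. The interval of Msx2, -0.88 to -0.21, lies below 0 before adjustment over all genes, and those of Msx1, Dlx3, Dlx5 and Dlx6 include 0.

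Dlx1, Dlx2 and Dlx4 did not pass the filter. Dlx1, which with Dlx2 guides the birth and migration of forebrain interneurons and patterns the jaws, had 0.208, 1.09 and 0.345 FPKM in mutant-labelled libraries, against 0.384, 0.383 and 0.465 FPKM in controls. Library 2 labelled mutant was above every other library and libraries 1 and 3 were below every control. Dlx2 was listed at 0.165, 0.59 and 0 FPKM in mutant-labelled libraries, against 0.39, 0.299 and 0.477 FPKM in controls, with the same library highest. Dlx1as, which lies antisense to Dlx1, had 0.331, 2.64 and 0.257 FPKM in mutant-labelled libraries and 0.824, 0.857 and 1.01 FPKM in controls, again highest in library 2. Dlx4, known mainly from placenta and from human blood cells, had 0.133, 0.125 and 0.0459 FPKM in mutant-labelled libraries and 0.161, 0.153 and 0.106 FPKM in controls, and the groups overlapped. In a fit with no filter on low values, the adjusted p (limma, Benjamini-Hochberg) was 0.93 for Dlx1, 0.837 for Dlx2 and 0.835 for Dlx4. How many fragments stand behind such values is not known from these files.

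Neural markers, like Dlx1as, were highest in library 2 labelled mutant and lowest in libraries 1 and 3 of that group. The 10 neural markers summed to 39.3, 111 and 24.8 FPKM in mutant-labelled libraries and 60.9, 55.7 and 58.7 FPKM in controls, and all 10 had a value above 0 in every library. Tubb3, a tubulin of neurons and the most abundant of them, had 10.5, 59.2 and 7.63 FPKM in mutant-labelled libraries and 28.7, 20.7 and 23.9 FPKM in controls. Stmn2, which neurons make in growing axons, had 5.87, 26.9 and 4.50 FPKM in mutant-labelled libraries and 11.1, 6.98 and 10.2 FPKM in controls. Gad1 and Gad2, genes of forebrain interneurons singled out after their values were seen, had their highest value in library 2 labelled mutant too, at 0.994 and 0.456 FPKM. Of 7 tested, 0 passed in limma and 1 (Sox10, a neural crest and glial factor) had an unadjusted p under 0.05, against 10.5% of all tested genes. The part of neural tissue in the Dlx1 and Dlx2 values was not tested. Without library 2 labelled mutant, the mean of Dlx1 was 0.134 FPKM lower in mutant-labelled libraries than in controls, against 0.138 FPKM higher with it.

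**Figure D3:**
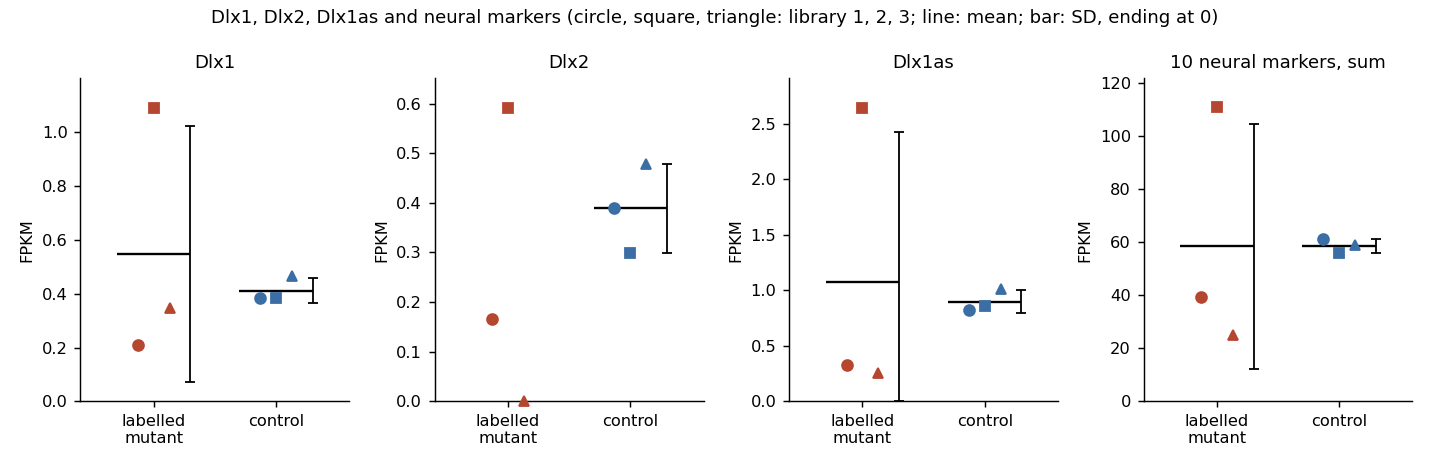
FPKM of Dlx1, Dlx2, Dlx1as and the sum of 10 neural markers in each library, mutant-labelled libraries left of controls; lines are means and bars SD over 3 libraries, ending at 0 and left out where a library is listed at 0. Library 2 labelled mutant (square) is the highest of the 6 in each panel.

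Set side by side, the Msx total was lower in every mutant-labelled library than in any control, while the Dlx totals overlapped. Msx1 and Msx2 together had 15.5, 13.2 and 20.3 FPKM in mutant-labelled libraries, against 20.8, 29.2 and 20.8 FPKM in controls. The groups did not overlap, though library 3 labelled mutant came close to controls 1 and 3. Dlx1 to Dlx6 together had 51.1, 56.1 and 71.6 FPKM in mutant-labelled libraries, against 61.7, 57.2 and 62.4 FPKM in controls, and these groups overlapped. The ratio of means was 0.691 for Msx and 0.987 for Dlx. Leaving out any 1 library gave 0.607 to 0.784 for Msx and 0.887 to 1.06 for Dlx. As the totals are scores over genes chosen together, they carry no test.

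Within a library, the Msx share of the summed FPKM of both families was 23.2%, 19.04% and 22.1% in mutant-labelled libraries, against 25.2%, 33.8% and 25.0% in controls. Dlx5 alone made up 50.2% to 51.2% in mutant-labelled libraries and 39.3% to 47.5% in controls. The ratio of Dlx5 to Msx2, an activator and a repressor of the same osteoblast promoters such as that of osteocalcin, was 3.76, 4.91 and 4.24 in mutant-labelled libraries, against 2.96, 2.24 and 3.09 in controls. None of these 3 measures overlapped between the groups, but all 3 contain the Msx2 and Dlx5 values and are not separate results. Msx2 alone did not overlap in the lower direction, as was so for 6.79% of all tested genes. Msx2 over Msx1 did overlap, at 1.16 to 1.42 in mutant-labelled libraries and 1.08 to 1.75 in controls.

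**Figure D4:**
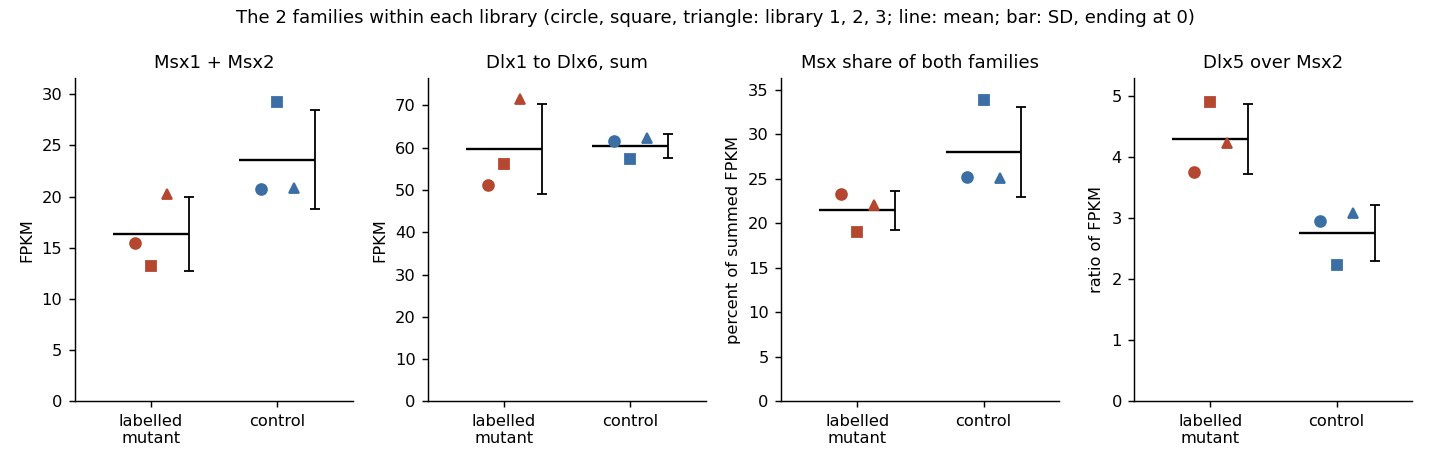
Summed FPKM of the Msx and of the Dlx genes, the Msx share of both (percent) and the ratio of Dlx5 to Msx2 in each library, mutant-labelled libraries left of controls; lines are means and bars SD over 3 libraries. The ratio of Dlx5 to Msx2 is 3.76 to 4.91 in mutant-labelled libraries and 2.24 to 3.09 in controls.

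Most other transcription factors of the skull had lower values too, by less than Msx2. Of 16 on the list, all tested, 15 had a lower and 1 a higher value, 0 passed in either direction in limma with 5 at an unadjusted p under 0.05, and 6 did not overlap in the lower direction. Over all tested genes 10.5% had such a p and 6.79% did not overlap in that direction. The list's median log2 difference was -0.25, against 0.0015 over all tested genes. Alx4, whose loss leaves gaps in the skull vault as that of Msx2 does, had 24.1 ± 3.09 FPKM in mutant-labelled libraries and 30.3 ± 0.709 FPKM in controls (SD, n = 3 each). En1, which mouse calvarial bone needs for its growth, had 3.36 ± 0.617 FPKM in mutant-labelled libraries and 4.71 ± 0.262 FPKM in controls (SD, n = 3 each). Twist1, whose partial loss closes the coronal suture, overlapped at 53.1, 52.1 and 74.3 FPKM in mutant-labelled libraries and 55.3, 64.1 and 61.6 FPKM in controls.

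In the BMP pathway, which induces Msx genes, 22 of 23 listed genes were tested. Of these 16 had a lower and 6 a higher value, 0 passed in either direction in limma with 6 at an unadjusted p under 0.05, 4 did not overlap in the lower and 1 in the higher direction, and the median log2 difference was -0.17. The shares over all tested genes were 10.5% for such a p, 6.79% for no overlap in the lower and 9.34% in the higher direction. Id1, a direct target of BMP signalling, had 65.5, 59.1 and 72.2 FPKM in mutant-labelled libraries, against 87.8, 108 and 90.4 FPKM in controls (adjusted p = 0.105 by limma with Benjamini-Hochberg). Every library labelled mutant lay below every control in Id1, as it did in Msx2. Bmp6, a ligand, had 8.37 ± 1.04 FPKM in mutant-labelled libraries and 11.3 ± 1.08 FPKM in controls, and Chrd, a secreted BMP antagonist, had 9.81 ± 0.477 FPKM under the mutant label and 12.03 ± 0.714 FPKM in controls (SD, n = 3 each). Bmp4, a ligand known to induce Msx genes in the skull and singled out after its values were seen, overlapped, with 19.1, 14.4 and 16.4 FPKM in mutant-labelled libraries and 21.2, 23.6 and 18.2 FPKM in controls.

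Among genes of osteoblast maturation, which Msx2 and the Dlx proteins regulate, 12 of 14 had a higher and 2 a lower value, with a median log2 difference of 0.076. Ibsp, which encodes bone sialoprotein, was the 1 that passed. It had 1778, 1485 and 2004 FPKM in mutant-labelled libraries, against 939, 831 and 954 FPKM in controls (log2 difference 0.94 ± 0.12 SE, adjusted p = 0.0306 by limma with Benjamini-Hochberg). Spp1, which encodes osteopontin, had 3203, 2962 and 3731 FPKM in mutant-labelled libraries, against 2305, 1986 and 2266 FPKM in controls. Bglap2, 1 of the near-identical osteocalcin genes, had 27.05, 47.8 and 52.9 FPKM in mutant-labelled libraries, against 92.6, 89.0 and 149 FPKM in controls, without passing. Of the 14, 8 had an unadjusted p under 0.05, against 10.5% of all tested genes. No overlap was seen for 6 in the higher and 2 in the lower direction, against 9.34% and 6.79% of all tested genes.

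**Figure D5:**
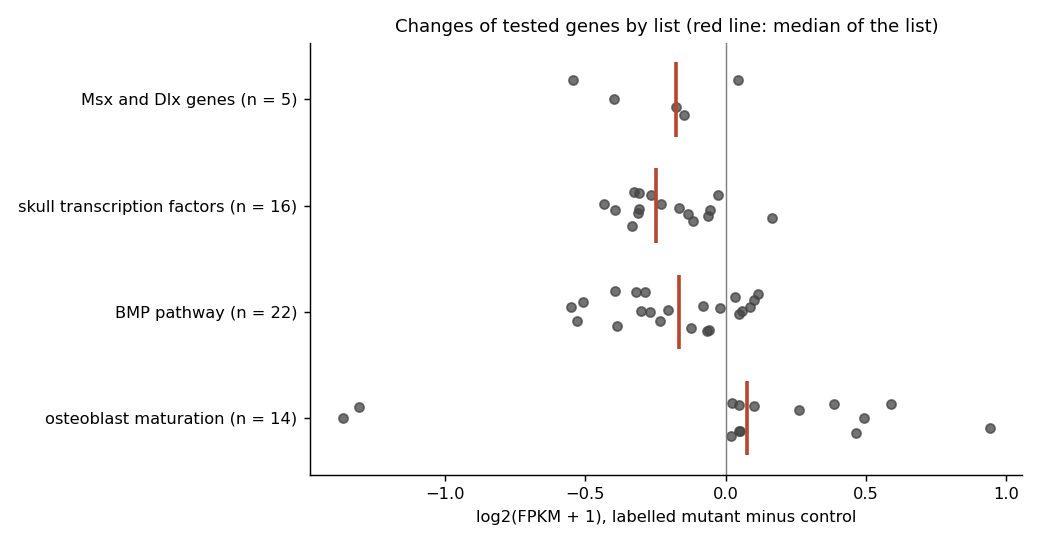
Difference of mean log2(FPKM + 1), labelled mutant minus control, for each tested gene of the Msx and Dlx families and 3 other lists (1 point per gene; spread on the vertical axis is for legibility), with the list's median in red. The medians of the skull transcription factors (-0.25) and BMP pathway (-0.17) lie left of 0 and that of osteoblast maturation (0.076) right of it.

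Dlx5 and Dlx6 act downstream of endothelin in patterning of the jaws. Of 8 genes of pharyngeal arch patterning 4 passed the filter, of which 3 had a lower and 1 a higher value. The median log2 difference of these 4 was -0.34. In limma 0 passed, with 1 at an unadjusted p under 0.05, against 10.5% of all tested genes. Hand2, a target of Dlx5 and Dlx6 in the lower jaw, was listed at 0 in all 6 libraries. Gsc, a homeobox gene of jaw and middle ear, had 1.67, 1.04 and 1.998 FPKM in mutant-labelled libraries, against 3.35, 4.80 and 3.67 FPKM in controls (adjusted p = 0.0927 by limma with Benjamini-Hochberg). Pou3f3 had 2.27, 3.81 and 1.11 FPKM in mutant-labelled libraries and 3.95, 4.87 and 2.67 FPKM in controls. Edn1, the endothelin ligand, had 3.23, 1.19 and 1.35 FPKM in mutant-labelled libraries and 2.75, 1.61 and 1.89 FPKM in controls, and both overlapped.

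Genes encoding proteins known to bind Msx or Dlx factors ranged in mean level over the 6 libraries from 1.63 FPKM for Grip1 to 263 FPKM for Maged1. All 7 listed were tested, 3 had a higher and 4 a lower value, and the median log2 difference was -0.033. In limma 0 passed, with 1 at an unadjusted p under 0.05. Among all tested genes 10.5% had such a p and 6.79% did not overlap in the lower direction. Maged1, which binds Dlx5 and Msx2 proteins, had 257 ± 20.5 FPKM in mutant-labelled libraries and 269 ± 9.50 FPKM in controls (SD, n = 3 each). Ndn, a related protein of the same MAGE family, had 57.99, 60.5 and 56.9 FPKM in mutant-labelled libraries, against 67.2, 74.3 and 85.4 FPKM in controls, with no overlap (adjusted p = 0.199 by limma with Benjamini-Hochberg). Pias2, first found as a partner of Msx2, had 12.2 ± 0.284 FPKM in mutant-labelled libraries and 11.7 ± 0.341 FPKM in controls (SD, n = 3 each).

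Likeness of pattern was measured as the root mean square difference between centred log2(FPKM + 1) values over the 6 libraries, so that 0 is an identical profile. The nearest genes to Msx2 were Irx3, another homeobox gene, at 0.0614 and Six2, a homeobox gene of the list above, at 0.0702, where Msx2 itself had an SD of 0.356. Irx3 had 10.95, 8.49 and 12.4 FPKM in mutant-labelled libraries, against 14.5, 19.05 and 13.8 FPKM in controls, and shared the high value of control 2 and the low value of library 2 labelled mutant. The nearest to Msx1 were Kcns1, at 0.0723, and Prrx2, a homeobox gene of craniofacial mesenchyme, at 0.0956. The nearest to Dlx3 were P4ha2, a collagen prolyl hydroxylase, at 0.0176, and Igsf10, at 0.0221. Those to Dlx5 were 2310039H08Rik, at 0.0302, and Tmem175, at 0.0353, and those to Dlx6 were Ppcs, at 0.096, and Acot2, at 0.0963. With 6 libraries and 13180 genes, close profiles are found for any gene, and these distances are a description.

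Markers of other cells moved with the groups or with single libraries as follows. Of 10 cartilage markers all were tested, and 9 had a lower and 1 a higher value, with a median log2 difference of -1.87. Those that passed as lower were 3 (Ucma, Matn1 and Col9a3), against 0.0835% of all tested genes. Of 9 osteoclast markers all were tested and all had a higher value, with a median of 1.45. Of these, 8 passed as higher, against 0.524% of all tested genes. In 4 tested epidermal, 7 neural, 5 meningeal, 3 inner ear, 6 muscle and 4 red cell markers, 0 passed in limma. At an unadjusted p under 0.05 were 1 epidermal, 1 neural and no other, against 10.5% of all tested genes. In that order of lists, the medians were -0.42, -0.092, -0.25, -1.54, -0.13 and 0.33. Meningeal markers summed to 159 to 278 FPKM in mutant-labelled libraries and 69.6 to 501 FPKM in controls, muscle markers to 6954 to 11659 FPKM under the mutant label and 8249 to 13442 FPKM in controls. Red cell markers summed to 2626 to 11682 FPKM under the mutant label and 4676 to 6776 FPKM in controls. The part of these cells in the values of Msx2 and the other members was not tested.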

How the data were processed

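Messenger RNA of newborn calvaria was sequenced after a stranded library preparation, per the labels' protocols, in 3 libraries labelled mutant and 3 controls, grouped by title. The authors deposited FPKM per gene name, 1 table per library, and the submitters' processing notes name Cufflinks 2.2.1, TopHat2 2.0.13 with its aligner Bowtie2 2.2.3, SAMtools 0.1.19 and the mm10 build. The sources used here do not give options, annotation, use of strand or read totals. FPKM scales by length and library size. Median-of-ratios factors were 1.002 to 1.003 in every library and left the values nearly as they were. The setting with that scaling could thus change little and is hardly a separate check. Whether the deposited values had already been scaled across libraries is not given either. Absolute depth is unknown and no test for counts was run. Correlations between libraries on the log2 scale were 0.971 to 0.979 within groups and 0.967 to 0.977 between them.

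The 13180 genes whose mean reached 1 FPKM entered limma 3.58.1 (R 4.3.3) as log2(FPKM + 1) values (lmFit, eBayes with trend, group as the 1 term, two-sided), with Benjamini-Hochberg adjustment over all of them at 0.05. This scale understates changes of low genes. The fit was tested on simulated data. The labels do not say whether libraries came from separate animals, so p-values measure the spread between these libraries. Pth1r was also tested by exact permutation. Relative depth was read from low values, under 0.05 FPKM. Members and lists were chosen with earlier results of these data known. The lists cover the BMP pathway, osteoblast maturation, skull transcription factors, pharyngeal arch patterning, protein partners, and markers of cartilage, osteoclast, epidermis, neural tissue, meninges, inner ear, muscle and red cells. Of their entries, Hbb-bt matched no name. Antisense genes and Msx3 are given singly. Msx1as is an older name of Msx1os in RefSeq, and Dlx4os was not used here. The text names every member, in each list those past the threshold and the 3 smallest p, and for each member at 5 FPKM or more the 2 nearest profiles (a few items that this rule covers are not reported here); marker lists are given mainly as counts and sums, and other genes (Twist1, Runx2, Sp7, Col1a1, Hand2) were named after their values were seen. GENCODE M21 gave gene positions (GRCm38, which UCSC calls mm10). Homeoboxes were found with Biopython 1.88 by translating transcripts and anchoring on the conserved tryptophan of the recognition helix. Other settings tried were another pseudocount, other filters, scalings and variance models, a block for replicate number, array weights, and each library left out in turn.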

Additional observations from a re-analysis of the deposited data

How the results depend on the processing

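None of the 5 tested members passed under any of the 16 settings tried, and 0 members were called in either direction throughout. The signs of Msx1, Msx2 and Dlx3 held in every setting, with log2 differences of -0.57 to -0.15, -0.67 to -0.41 and -0.26 to -0.087. Dlx5 (0.045 in the reported fit) was -0.050 with array weights, -0.088 without library 3 labelled mutant and -0.012 without control 2, and ranged from -0.088 to 0.12 over the fits that leave out a library. Dlx6 (-0.18) was 0.029 without library 1 labelled mutant and ranged from -0.39 to 0.029. The cause was not tested. Pth1r passed with array weights alone (0.40, adjusted p = 0.0458 by limma with Benjamini-Hochberg; 0.0458 to 0.201 over the settings).

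Over all genes, 69 were called higher and 11 lower. These counts were 44 and 6 with no filter, 152 and 31 with array weights, and 15 to 34 and 1 to 12 when a library was left out. With the replicate number as a block they were 23 and 2. Same-numbered libraries did not deviate together over all genes (correlations of -0.0714 to 0.0163). With 3 libraries a group this check cannot exclude pairing, and the labels do not say whether the numbers pair libraries. Fragment counts behind the 3 members under 1 FPKM are not known, and 3 libraries a group limit every value.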
